A study of Rattus norvegicus with 2 samples.

Results

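The genes of the cytoplasmic ribosomal proteins were examined in rat dorsal root ganglia (DRGs), which house the somata of sensory neurons (SNs). They were found by gene symbol, as symbols that start with Rpl or Rps followed by a digit, with Rplp0 and Rpsa, and without the kinase genes whose symbols start with Rps6k. Each gene was represented by 1 probe set, a group of short probes whose brightness is summed up as 1 signal, taking the probe set whose mean log2 signal was highest. This gave 50 genes of 14217 measured genes. Of the 50, 29 encode proteins of the large subunit, 13 encode proteins of the small subunit, and 8 are other symbols that the rule also takes in, namely paralogs and transcribed pseudogenes. The standard lists hold 46 large-subunit and 31 small-subunit proteins. Genes of these lists that were not among the 50, such as Rplp1, Rplp2 and Rps27a, had no probe set with a single symbol here.

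Both arrays came from female Sprague-Dawley rats of 4 weeks, as given in the study's methods, in which 100000 cells of IP-B12, a lung carcinoma of the rat that destroys bone as it grows, were placed into the marrow of the right tibia 14 days before DRGs were taken. The tumor-side array carried RNA of DRGs of that side, and the control-side array carried RNA of DRGs of the left side, so the control came from tumor-bearing rats. The sources used here do not give the number of rats and describe no sham procedure on the left leg, so tumor and procedure cannot be told apart. Since either side has a single array, replicate error is unknown, no test was made, and the values describe these arrays alone. Whole ganglia were used, so fewer cells of a type and less RNA per cell cannot be told apart.

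A ribosome is built from ribosomal RNA and a set of proteins that is shared by all cells, with a large subunit that joins amino acids and a small subunit that reads the mRNA. Its proteins are needed in nearly equal numbers, and their mRNAs are among the most abundant of any cell. Many of these mRNAs start with a C followed by a stretch of pyrimidines, the TOP sequence, through which mTOR signalling controls their translation. SNs make ribosomes for large cell bodies and also carry ribosomal protein mRNAs into their axons.

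The TOP-like start is a feature that the symbol rule did not use. RefSeq promoter windows of the assembly GRCr8, with 250 bases before and 50 bases after the annotated start, were found for 41 of the 50 genes. In 11 of the 41 (26.8%) the annotated start was a C followed by at least 4 bases that were each C or T. The same held for 2.56% of 7926 genes on the array above the signal rule given below and for 2.63% of all 27457 promoters. When the C could lie up to 10 bases on either side of the annotated start, a looser search added later, 27 of the 41 (65.9%) held the pattern, against 28.3% of the 7926 genes and 28.8% of all promoters. Annotated starts can be off by some bases, and a window without the pattern tells only that these letters are not there. The motif AAGATGG, which YY1 can bind, lay on either strand in 8 of 41 windows (19.5%) against 8.57% of the 7926 genes and 7.30% of all promoters. The ETS motif CCGGAAG lay in 10 of 41 (24.4%) against 18.7% and 9.22%, and TATAAA in 6 of 41 (14.6%) against 6.40% and 14.3%. The ETS motif overlaps the TOP pattern, since its reverse strand begins with a C followed by 4 bases that are each C or T. Of the bright genes defined below, the 9 with the pattern at the annotated start had a median log2 ratio between the sides of 0.10, and the 23 with a window that lacks it there had 0.08.

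The windows of 35 bases around the start of 8 genes are printed to show the TOP-like start beside starts without it. Each has 20 bases before the start and 15 bases from it on, and capitals mark the run of C and T that begins with a C at the start. Rpl19, Rpl22, Rpl35a, Rplp0 and Rps15 hold it. Rps3, Rpl5 and Rpl39l1 do not hold it at the annotated start, although Rpl5 holds it in the looser search, with a run of 7. They are shown because Rps3 had the highest ratio of the bright genes, Rpl5 one of the lowest and Rpl39l1 the highest of all 50.
Rpl19, chr10:83519044-83519078, + strand: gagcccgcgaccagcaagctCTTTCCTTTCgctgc
Rpl22, chr5:168117941-168117975, + strand: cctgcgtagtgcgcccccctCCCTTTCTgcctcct
Rpl35a, chr11:81235007-81235041, - strand: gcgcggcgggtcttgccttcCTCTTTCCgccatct
Rplp0, chr12:46718376-46718410, - strand: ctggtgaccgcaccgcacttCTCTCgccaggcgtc
Rps15, chr7:10068101-10068135, - strand: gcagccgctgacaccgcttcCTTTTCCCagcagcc
Rps3, chr1:163195762-163195796, - strand: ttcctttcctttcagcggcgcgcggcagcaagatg
Rpl5, chr14:1995211-1995245, - strand: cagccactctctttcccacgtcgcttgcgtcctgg
Rpl39l1, chr10:5966607-5966641, - strand: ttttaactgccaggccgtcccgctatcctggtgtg

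Ribosomal protein genes fell into a large bright group and a small dim one. In 38 of the 50 genes the mean log2 signal was at least 10, a signal of 1024, and their signals lay between 1856 and 11083 on either array. In the other 12 it lay lower, with signals between 3.63 and 618, and none of the 50 lay between these ranges. All 38 bright genes encode standard proteins of the ribosome, 26 of the large and 12 of the small subunit. The 12 dim genes comprise Rpl28, Rpl30, Rpl39, Rps13 and all 8 other symbols. Signals of different probe sets depend on their probes, so the order of signals is not an order of transcript levels. A signal rule kept probe sets whose mean log2 signal reached 6.13, the median of all probe sets, and 44 of the 50 genes met it. The highest signals on the arrays were 13301 and 13401, so the bright genes reached close to the top of the range.

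**Figure D1:**
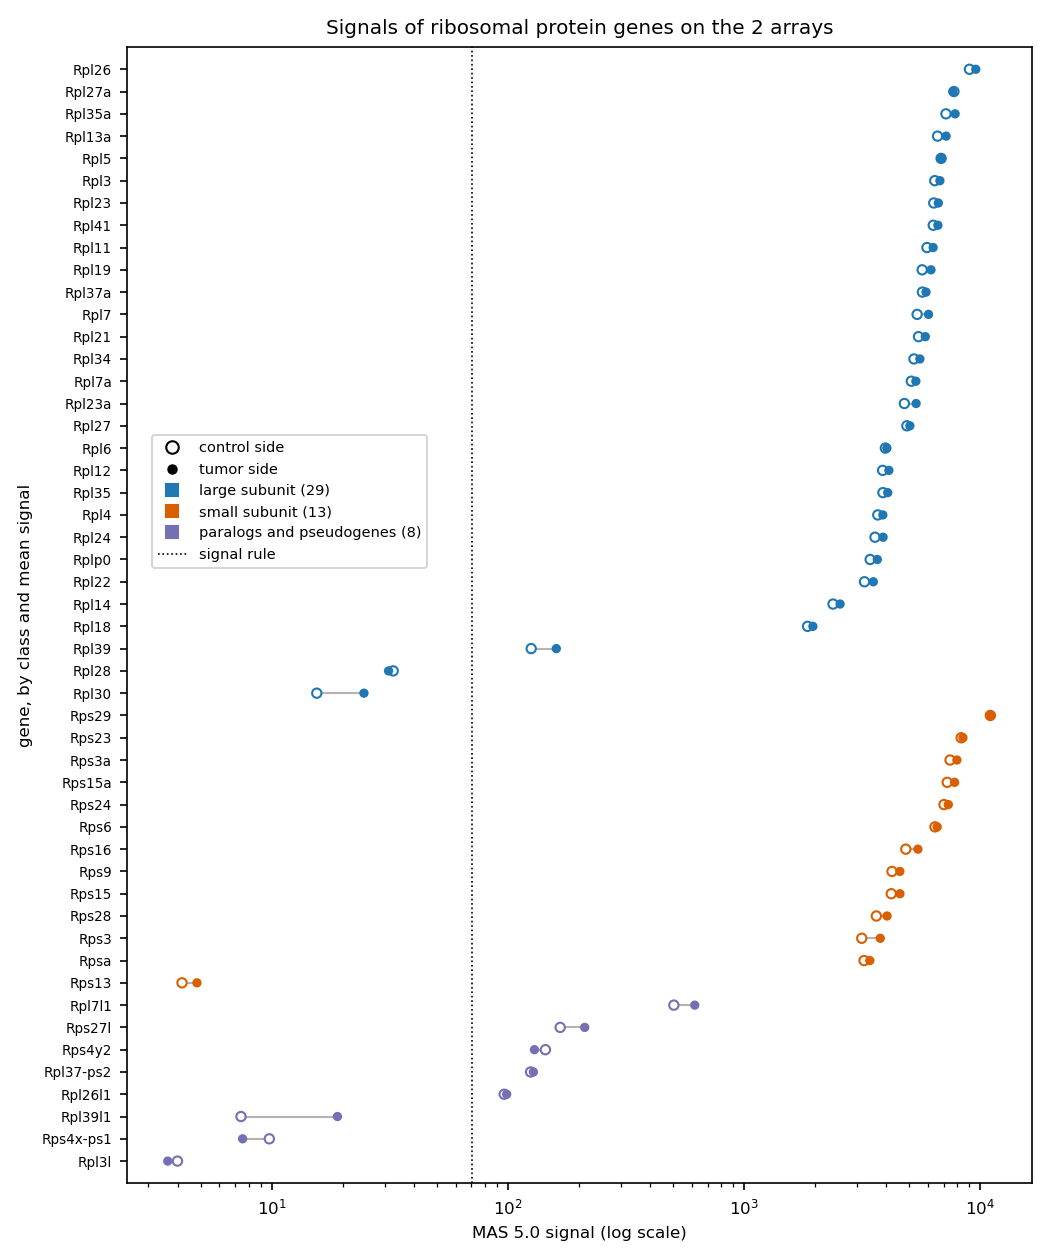
MAS 5.0 signal on a log scale (x) of each of the 50 ribosomal protein genes (y), open circles for the control-side array and filled circles for the tumor-side array, 1 value each, with colours for the class. The bright genes lie between 1856 and 11083 with both circles nearly on each other, and circles stand farther apart in dim genes such as Rpl39l1, with 7.40 and 19.0.

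The 38 bright genes kept nearly the same ratio between the sides. Their median log2 ratio, tumor over control, was 0.09, which is 6.25% higher on the tumor side, against 0.08, or 5.75%, over 9510 genes above the signal rule. The whole tumor-side array was brighter by about this much, and 14 probe sets for spiked hybridization controls had a median of 0.08 as well. Relative to the 9510 genes, most of them dimmer, the bright ribosomal protein genes thus differed by 0.01 in the log2 ratio. Of the 38, 22 were above this gene median. Over 1022 other genes within the same range of signals the median was lower, 0.07, and 435 of the 1022 were above the gene median. The position against the gene median also depended on the scaling. After quantile normalization 30 of 38 were above it and after loess 29, where they stood 0.04 and 0.03 above it. Of the 38, 36 had a higher signal on the tumor side as deposited and 2 a lower one.

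None of the 38 reached a fold of 1.2 in either direction. Of 2049 genes of a mean log2 signal of 10 or more, 2.39% were higher on the tumor side by that fold and 0.244% were lower. These shares are small, so 0 of 38 lies close to the background. The SD of the log2 ratios over the 38 genes was 0.05, or 0.05 without Rps3, and the robust SD was 0.04. Over 1022 other genes within the same range of signals the SD was 0.09 and the robust SD 0.08. Of the 38, 33 (86.8%) lay within a fold of 1.1 of equality, against 79.5% of the 1022, although between mean log2 signals of 12 and 13 these shares were 87.0% of 23 and 89.6% of 278. Of the 38, 27 lay within the middle 50% of the log2 ratios of these other genes. Ratios narrow with signal in all genes, so signal was held closer still. Between mean log2 signals of 12 and 13, the SD was 0.05 over 23 ribosomal protein genes and 0.07 over 278 other genes, and between 11 and 12 it was 0.06 over 11 and 0.09 over 625. Above 13 it was 0.04 over 3 and 0.05 over 37. The ribosomal protein genes thus had the smaller SD in each of these signal ranges, without a test of the difference. The SD over the bright genes depended on taking the brightest probe set of each gene. It was 0.21 when probe sets of a gene were averaged, with the log2 ratio of Rpl14 at 1.29. Without probe sets prone to cross-hybridisation it was 0.12 over 37 genes, with the log2 ratio of Rps24 at 0.74. The SD of the other genes was not computed with these settings, so the order under them is not known. Medians of the ribosomal protein genes fell with signal, from 0.10 between 11 and 12 to 0.09 between 12 and 13 and 0.03 above 13. Those of the other genes fell from 0.08 to 0.05 and -0.02. Across the 38 genes the log2 ratio and the mean log2 signal had a Pearson's r of -0.34 and a Spearman's rho of -0.34, as a description across genes that share both arrays. Whether probes were saturated at the highest signals was not tested.

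**Figure D2:**
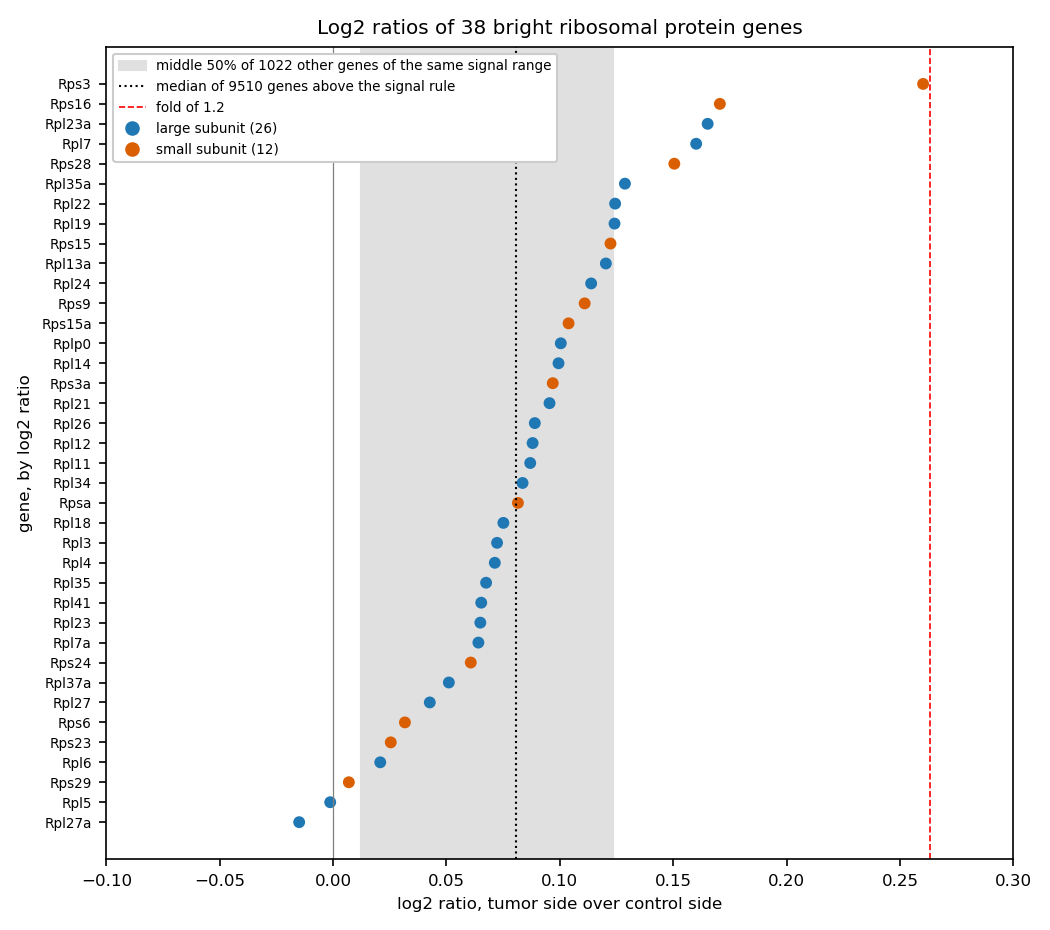
Log2 ratio of signals, tumor over control side, (x) for the 38 bright ribosomal protein genes in order of their ratio (y), 1 point per gene, blue for the large and orange for the small subunit. The grey band is the middle 50% of 1022 other genes of the same signal range, which holds 27 of the 38, the dotted line is the median of all genes above the signal rule (0.08), and Rps3 at 0.26 lies just short of the dashed line for a fold of 1.2.

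Rps3, which encodes a protein at the site where mRNA enters the small subunit, stood at the upper end. Signals were 3148 on the control array and 3770 on the tumor array, 19.8% higher (log2 ratio 0.26), just under the log2 value of the fold of 1.2. The next bright gene was Rps16, with 4835 and 5442 (0.17). Rps3 had only 1 probe set, and 2 further bright probe sets of Rpsa, which do not stand for that gene here, had 0.20 and 0.29. With other scalings the log2 ratio of Rps3 was between 0.18 and 0.20. Rps9, which encodes another protein of the mRNA entry site, had 4227 and 4565 (0.11), near the middle of the bright genes. Rps28, a small-subunit protein near the mRNA exit, had 3629 and 4028 (0.15).

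Other small-subunit genes lay on either side of the array-wide shift. Rps6, which encodes the classic substrate of S6 kinases, had 6425 and 6568 (0.03). Rpsa, a small-subunit protein also known as the laminin receptor, had 3219 and 3406 (0.08). Rps23, a protein of the decoding centre, had 8298 and 8445 (0.03). Rps3a, one of the brightest, had 7445 and 7962 (0.10), and Rps29, a small zinc-binding protein and the brightest of all, had 11029 and 11083 (0.01). All 12 bright small-subunit genes were higher on the tumor side as deposited, and 8 of the 12 were above the gene median. Their median log2 ratio was 0.10, with a range from 0.01 to 0.26 and an SD of 0.07.

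Large-subunit genes had a median log2 ratio of 0.09 over the 26 bright genes, with a range from -0.01 to 0.17 and an SD of 0.04. Thus 14 of 26 were above the gene median, and the medians of both subunits differed by less than either SD. Rplp0, the base of the stalk that recruits elongation factors, had 3417 and 3664 (0.10), and Rpl12, which sits at the foot of the stalk, had 3858 and 4101 (0.09). The proteins of Rpl5 and Rpl11 bind 5S ribosomal RNA and, when free, stabilize p53 by binding MDM2. Rpl5 had 6823 and 6817 (0.00), and Rpl11 had 5945 and 6314 (0.09), so that these partners lay at the low end and in the middle of the bright genes.

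Around the exit of the peptide tunnel, Rpl23a, a docking site for the signal recognition particle, had 4769 and 5348 (0.17). Rpl19 had 5673 and 6183 (0.12), Rpl26 had 8996 and 9568 (0.09), and Rpl35 had 3869 and 4055 (0.07). These 4 bright genes had a median of 0.11, close to that of all bright genes. At the ends of the large-subunit order, Rpl7 had 5401 and 6035 (0.16), whereas Rpl27a had 7734 and 7655 (-0.01) and Rpl6 had 3963 and 4021 (0.02). Rpl27a and Rpl5 were the only bright genes with a lower signal on the tumor side as deposited. The remaining bright large-subunit genes had log2 ratios between those of Rpl6 and Rpl7.

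Of the probe sets that stand for the 50 genes, only dim ones passed a fold of 1.2. Of the 50 genes, 5 were higher on the tumor side by a fold of 1.2 and 1 was lower, all 6 of them dim, and by a fold of 1.5 2 were higher and 0 lower. Among the 9510 genes above the signal rule, 11.5% were higher and 3.31% lower by a fold of 1.2, and 0.873% and 0.484% by a fold of 1.5. Within percentiles 10 to 90 of the members' mean log2 signals, 14.1% of 11127 genes were higher and 5.89% lower by a fold of 1.2. Over all 14217 genes whatever their signal, 2835 were higher and 1720 lower by a fold of 1.2, and 1133 and 889 by a fold of 1.5. The 5 and 1 of 50, which include genes below the signal rule, lie below each share for the fold of 1.2. Since 38 of the 50 are bright, and few bright genes of any kind pass this fold, nothing is read from that. Neither gene past a fold of 1.5 met the signal rule. Of the 44 ribosomal protein genes that met the signal rule, 3 were higher by a fold of 1.2 and 0 lower. The SD over the 12 dim genes was 0.46, and ratios scatter as widely in other genes of such signals, with an SD of 1.27 over 754 genes of a mean log2 signal between 3 and 4 and of 0.22 over 2155 between 7 and 8.

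Among dim standard genes, Rpl39, a very small protein of the tunnel exit, had 125 on the control array and 160 on the tumor array, 1.28 times higher (0.35). Rpl30 had 15.5 and 24.6 (0.66), Rpl28 had 32.7 and 31.2 (-0.07), and Rps13 had 4.17 and 4.82 (0.21), the last below the highest trp control probe set on the control array (5.39) and just above it on the tumor array (4.63). Rpl28, Rpl30 and Rps13 were also listed, beside other symbols, on 4 bright probe sets, with control-side signals between 3051 and 7587 and log2 ratios between 0.01 and 0.15. The low signals of their own probe sets thus describe those probe sets, and no low level of the 3 genes can be read from them.

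Paralogs and pseudogenes were dim without exception. Rpl7l1, a relative of Rpl7 that acts in ribosome biogenesis, had 504 and 618 (0.29), with 337 and 367 (0.12) on a second probe set, so that it passed the fold of 1.2 on 1 of its 2. Rps27l, a paralog of Rps27 induced by p53, had 166 and 211, 1.27 times higher (0.35). Rpl39l1, a relative of Rpl39, had 7.40 and 19.0, the highest log2 ratio of the 50 (1.36), at a signal where ratios in general scatter this widely. Rps4y2, a relative of Rps4x, had 144 and 129 (-0.15), Rpl26l1 had 96.4 and 98.7 (0.03), and the pseudogenes Rpl37-ps2 and Rps4x-ps1 had 125 and 128 (0.04) and 9.76 and 7.52 (-0.38). Paralogs share long stretches of sequence, so signal from the abundant relative cannot be told apart from their own.

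Rpl3l replaces Rpl3 in skeletal muscle and heart, with signals of 3.99 (control) and 3.63 (tumor), below the highest trp control probe set on either array. All 8 measured skeletal muscle markers were lower on the tumor side, with summed signals of 1309 and 438. Rpl3, the form of other tissues, had 6414 and 6743 (0.07). So a difference of Rpl3l between the sides was not detectable at this signal.

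**Figure D3:**
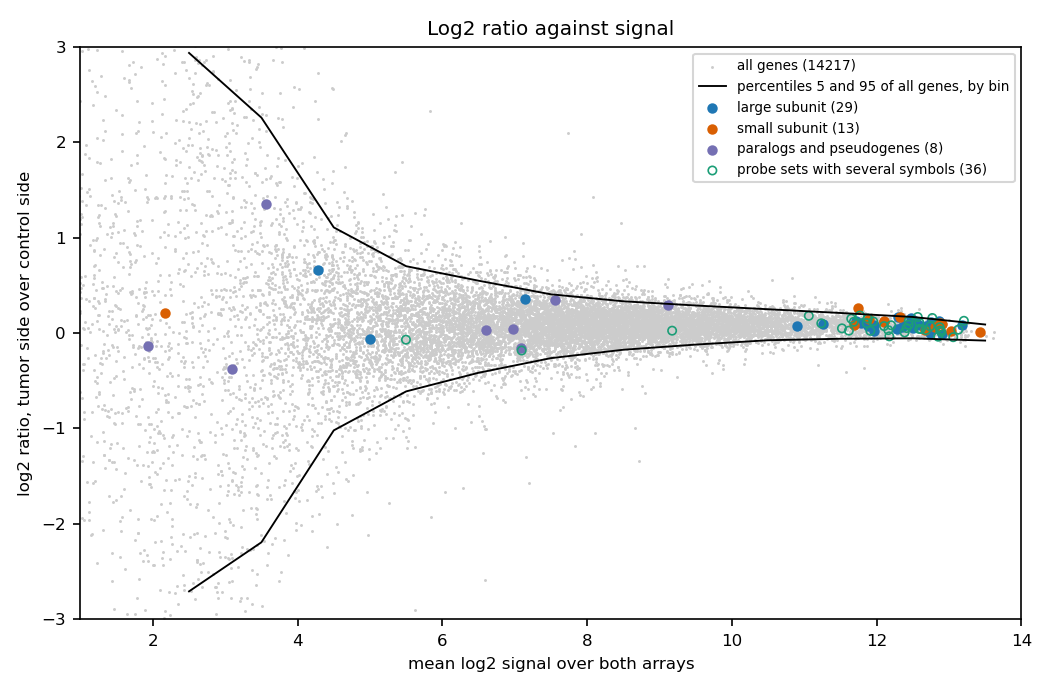
Log2 ratio of signals, tumor over control side, (y) against the mean log2 signal over both arrays (x), grey for all genes (451 lie outside the axes), colours for the 50 ribosomal protein genes and open green circles for 36 probe sets with several symbols. The black lines are percentiles 5 and 95 of all genes in bins of 1 log2 unit, and the ribosomal protein genes lie mostly at the bright, narrow end.

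Probe sets of the same gene, read on the same arrays, showed how far ratios depended on the probes. They do not give the replicate error. Of the 50 genes, 6 had more than 1 probe set. For Rpl3 the log2 ratios were 0.07 and 0.12, for Rpl7 0.16 and 0.03, and for the 3 probe sets of Rpsa 0.08, 0.20 and 0.29. The last of these, with 933 and 1139 and a mean log2 signal just above 10, passed the fold of 1.2, which the brightest probe set of Rpsa did not. The differences in Rpl7 and Rpsa were larger than the SD over the 38 bright genes. In Rpl14 the bright probe set had 2378 and 2548 (0.10) and a dim one 3.88 and 21.6 (2.48), and in Rps24 the bright one had 7017 and 7319 (0.06) and a dim one 50.1 and 83.4 (0.74). The widest gaps, in Rpl14 and Rps24, lay where the second probe set was dim, whereas the 3 probe sets of Rpsa were all bright and spanned 0.21.

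Probe sets that list several symbols, at least 1 of them by the symbol rule, were left out of the 50 genes and offer a second set of bright ribosomal probe sets. Of 36 such probe sets, 33 had a mean log2 signal of 10 or more. Their median log2 ratio was 0.07 with a range from -0.04 to 0.18 and an SD of 0.06, beside 0.09 and 0.05 for the 38 bright genes, and 0 of the 33 reached a fold of 1.2. They name no single gene and share both arrays with the 38.

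Other parts of the translation machinery had medians near those of all genes. Of 36 initiation factors above the signal rule, the median log2 ratio was 0.12, with 2 higher and 1 lower by a fold of 1.2, beside 11.5% and 3.31% of all genes above the rule. Eif3m and Eif3f, subunits of the scaffold complex eIF3, were the higher ones with 4089 and 5063 (0.31) and 1698 and 2048 (0.27), which makes 2 of 19 bright factors beside 2.39% of all bright genes, and Eif4e2, a cap-binding relative of eIF4E, was the lower one with 295 and 219 (-0.43). Of 15 elongation and release factors, with a median of 0.07, none reached that fold. Among 13 other genes known for TOP mRNAs, some of which are also in the lists of factors, the median was 0.14 and 1 was higher, Eif3f. Rack1, a small-subunit protein outside the symbol rule, had 2827 and 3109 (0.14). Of 25 S6 kinase and mTOR pathway genes the median was 0.05, which turned to -0.03 after quantile normalization, centring or loess, and none reached a fold of 1.2. Rptor, the scaffold of mTORC1, had the largest ratio in size with 187 and 217 (0.22).

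Genes of ribosome production were mostly of lower signal, with a few larger ratios. Of 53 ribosome biogenesis genes above the signal rule 5 were higher by a fold of 1.2 and 0 lower, with a median of 0.12. They included Heatr1, which is needed for processing of ribosomal RNA, with 70.5 and 110 (0.64), the GTPase Gnl2 with 228 and 329 (0.53), and Dkc1, the pseudouridine synthase dyskerin, with 97.6 and 140 (0.52). Of 10 RNA polymerase I genes above the rule the median was 0.16 and 2 were higher, Polr1b with 106 and 138 (0.39) and Polr1e with 107 and 139 (0.38). The shares of 5 in 53 and 2 in 10 stand beside the 11.5% among all genes above the rule.

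Other complexes of many subunits were set beside the ribosome, among bright genes only. The SD of the log2 ratios was 0.07 over 24 mitochondrial ribosomal protein genes, 0.09 over 29 proteasome subunits and 0.07 over 69 respiratory chain subunits, against 0.05 over the 38 ribosomal protein genes. Their robust SDs were 0.05, 0.06 and 0.06, against 0.04. Medians were 0.14, 0.10 and 0.09. Of these bright genes none reached a fold of 1.2. Over all signals above the rule, 6 of 73 mitochondrial ribosomal protein genes were higher by that fold and 1 lower, 2 of 37 proteasome genes were higher and 0 lower, and of 73 respiratory chain genes 0 were higher and 0 lower, beside 11.5% higher and 3.31% lower among all genes above the rule. Mrpl14, a large-subunit protein of the mitochondrial ribosome, had 230 and 345 (0.58). Mrps18c, one of its small-subunit proteins, had 457 and 679 (0.57), which other probe sets of the gene did not share. These lists differ in signal, with fewer genes at the brightest end, and the differences in spread were not tested.

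**Figure D4:**
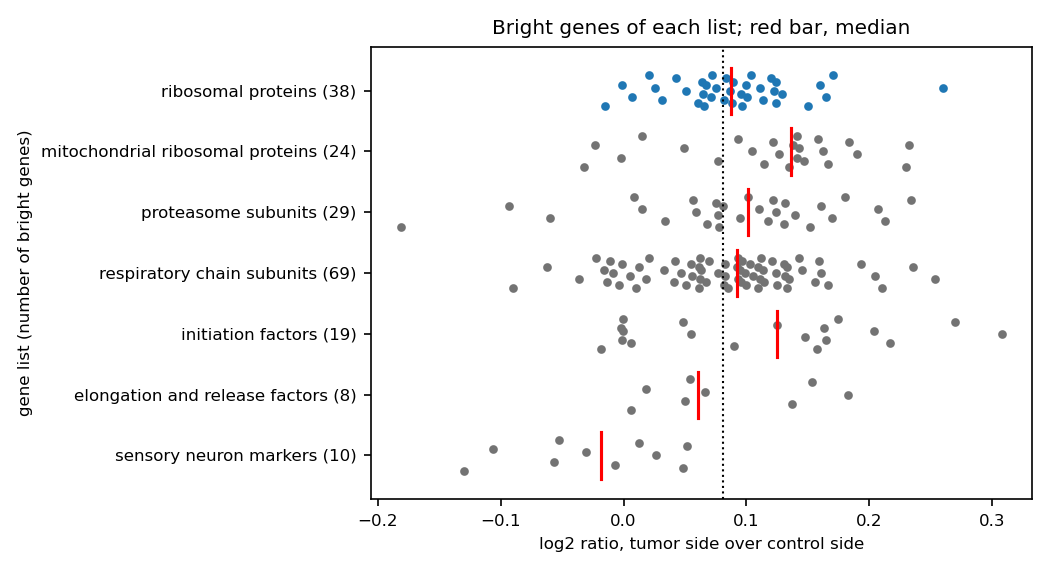
Log2 ratio of signals, tumor over control side, (x) of genes with a mean log2 signal of 10 or more in 7 lists (y), 1 point per gene with the vertical offset for legibility only, a red bar for each median and a dotted line for the median of all genes above the signal rule (0.08). The 38 ribosomal protein genes, in blue, have an SD of 0.05, and the 10 sensory neuron markers have a median of -0.02.

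Of 14 listed SN markers 13 were measured, all 13 above the signal rule and 10 of them bright. Their median log2 ratio was -0.05, and all 13 lay below the gene median of 0.08 as deposited. That median is mostly of dimmer genes, and ratios fell with signal. Non-ribosomal genes between mean log2 signals of 12 and 13 had a median of 0.05, and those above 13 had -0.02. The position also depended on the scaling. After quantile normalization, with a gene median of 0, the markers Nefl (0.06) and Calca (0.04) lay above it. At the low end, the transcription factor Pou4f1 had 311 and 247 (-0.33), the only one lower by a fold of 1.2, followed by Isl1 with 370 and 327 (-0.18) and the sodium channel Scn9a with 4855 and 4436 (-0.13). Pou4f1 and Isl1 lay below percentile 5 of all genes between mean log2 signals of 8 and 9 (-0.175). Scn10a (-0.11) lay below it between 10 and 11 (-0.08), and Scn9a between 12 and 13 (-0.06). The other measured markers did not lie below percentile 5 of their signal range. At the upper end Tac1, the substance P precursor, had 4385 and 4546 (0.05), and Prph and Calca had 8896 and 8852 (-0.01) and 9589 and 9765 (0.03). The value of Calca rested on the choice of probe set. Its log2 ratio lay above the gene median with the mean over probe sets, and also without those prone to cross-hybridisation. With the mean over probe sets the log2 ratio of Trpv1 moved the other way, to a lower value. Of 6 listed glial markers 4 were measured. The myelin genes Mbp and Pmp22 had 7967 and 8077 (0.02) and 9904 and 9762 (-0.02), Fabp7 had 2675 and 2875 (0.10), and Kcnj10 had 13.4 and 21.1 (0.66) below the signal rule. Without probe sets prone to cross-hybridisation the log2 ratio of Mbp was 0.26, and that of the SN marker Calca was larger still. Markers of other tissues differed between the sides, muscle as given above. Summed signals were 849 and 1847 for 6 bone genes, of which 5 were higher by a fold of 1.2 and 1, Dmp1, lower. For 4 granulocyte genes they were 1164 and 559, with 3 lower and 1, Camp, higher. For 2 erythroid genes they were 4216 and 3267, with 2 lower. Of all 14217 genes, 2835 were higher and 1720 lower by that fold. The part of these tissues in the ratios of ribosomal protein genes was not tested.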

How the data were processed

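RNA of DRGs was measured on 2 Affymetrix rat expression arrays, 1 per side, from 100 ng of total RNA each. MAS 5.0 was used by the authors with its defaults, and the deposited signal intensity values, linear and given for 31099 probe sets, include the background correction and the summary over probes. The scaling between arrays and detection calls are not given in the sources used here. The number of arrays limits the precision.

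Groups followed the disease label of each sample. From the deposited values log2 ratios were computed without a pseudocount. Beside 57 control probe sets, 20826 probe sets had 1 gene symbol, 436 had several and 9780 were unnamed here. Of the 50 ribosomal protein genes, 48 matched the RefSeq annotation of GRCr8 by gene identifier, with 0 symbols changed. No protein sequences were used here, and no build is named for the arrays. The signal rule used the mean of both arrays, since a rule on the higher signal favours changed genes. A robust SD is the scaled median absolute deviation. The procedure was run on simulated data with planted log2 changes far larger than the log2 ratios of the bright genes. That run does not bear on small differences between the sides.

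The genes, lists, folds of 1.2 and 1.5 and motifs were chosen with earlier results of these data known, and the bright group, the looser TOP search, the fold of 1.1 and the probe sets with several symbols after the values were seen. Named were the 6 highest and 6 lowest ratios, the 4 brightest and 4 dimmest genes, all symbols outside the standard ribosome, genes of given roles, the 4 genes whose probe sets differed most, and up to 3 genes of each list. Other genes given, among them Rpl3, Rpl6, Rpl35 and the TOP examples, were chosen after their values were seen. Tried as alternatives were a pseudocount of 11.1 (percentile 20), loess (span 0.3), centring on the median, quantile normalization, the mean over probe sets, omission of probe sets prone to cross-hybridisation, signal rules by mean or by higher signal, and standard proteins alone. Software was statsmodels 0.14.6, matplotlib 3.10.9, pandas 2.3.3 and numpy 2.4.6 under Python 3.11.15.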

Additional observations from a re-analysis of the deposited data

How the results depend on the processing

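No paired analysis was possible because a second array was made for neither side, and no array could be left out. The median log2 ratio of the 50 genes, 0.09, was 0.0039 with median-centred log2 ratios and 0.026 after loess, the median log2 ratio of large subunit genes was 0.0033 and 0.026, and for the small subunit 0.020 with centring. Centring takes the shift of the whole array off every gene by its construction. The SD over the 50 genes, 0.23, was 0.13 with the pseudocount, 0.089 with either signal rule, 0.11 with standard ribosomal proteins only and 0.053 over the 38 bright genes, the last an alternative chosen after seeing the data. Higher by a fold of 1.2 were 3 genes with centring, 3 with loess, 3 with either signal rule, 2 with standard proteins only and 0 over the bright genes, in place of 5. Lower were 0 with the pseudocount, with either signal rule, with standard proteins only and over the bright genes, in place of 1. By a fold of 1.5, 1 was higher with centring, the pseudocount or standard proteins only and 0 with either signal rule or over the bright genes, in place of 2. With the mean over all probe sets the SD over the 38 bright genes was 0.21, with the log2 ratio of Rpl14 at 1.29. Without probe sets prone to cross-hybridisation it was 0.12 over the 37 bright genes left, with Rps24 read from its dim probe set at 0.74. The log2 ratio of Mrps18c, a mitochondrial ribosomal protein gene, turned from 0.57 to -0.65 with the mean over probe sets and to -0.0066 without those prone to cross-hybridisation. Of the other values of genes, 610 moved by less than the SD among same-gene probe sets of like signal and 66 by more, 49 of them with centring, and of the list medians 120 moved by less than the spread within the list and 8 by more. The cause of these moves was not tested. Low signal limits what can be seen in the 12 dim genes.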
